A study of Mus musculus with 8 samples.

Results

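Transcripts of 10 genes around the transcription factors YAP and TEAD were followed in IMCD3 cells, a mouse kidney line of inner medullary collecting duct origin: the factor genes Yap1 and Tead1, the inhibitor genes Lats2, Amotl1 and Amotl2, and the target genes Ccn2 (Ctgf on the array), Ccn1 (Cyr61 on the array), Ankrd1, Axl and Thbs1. The members are the probes whose name on the array, or whose current symbol or synonym, is one of these genes. They make up 18 of 41174 probes and 10 of the 16079 genes tested. The rule uses names only, but the genes were chosen with earlier results of these data known. All 10 passed the filter on dim probes, which asked that all 4 arrays of a group, starved or unstarved, read the probe well above background, and all 10 also passed when this was asked of both groups.

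Starved IMCD3 cells spent 48 h in medium free of fetal calf serum (FCS), a treatment that brings out cilia. Unstarved IMCD3 cells were grown with 10% FCS, had been diluted 1:10 on the preceding day and were subconfluent at harvest, so serum and cell density differ together. The labels name no transgene, mutation or clone, and each group came from 2 culture dishes. Labelled cRNA from 1 starved and 1 unstarved sample shared each of 4 Agilent arrays of 60-base probes, and the arrays form 2 replicates of 2 technical arrays.

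YAP and its relative TAZ (gene Wwtr1) are co-activators that do not bind DNA themselves and reach their target promoters and enhancers through TEAD proteins, which recognise the letters GGAATG. The Hippo kinase cascade, ending in the LATS kinases, phosphorylates YAP and holds it in the cytoplasm, and angiomotin family proteins bind YAP and retain it there too. Crowding, low tension and serum withdrawal are textbook inputs that switch YAP off, while Lats2 and Amotl2 are themselves known YAP targets, a feedback loop.

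The promoters are printed first because most of the target transcripts described here are known outputs of TEAD sites. RefSeq's table (build GRCm38.p6) holds windows of 300 bases, 250 before to 50 after the gene start, for 7 of the 10 members (8 windows, Lats2 having 2); Tead1, Ccn2 and Thbs1 are not shown. The TEAD letters GGAATG were searched on both strands and are in capitals (CATTCC marks a match on the opposite strand). The promoters shown belong to the members that passed the test and have a window, and to Ccn1, which was added after its values were seen as the classical target that did not pass.
Axl promoter, chr7:25788684-25788983, minus strand: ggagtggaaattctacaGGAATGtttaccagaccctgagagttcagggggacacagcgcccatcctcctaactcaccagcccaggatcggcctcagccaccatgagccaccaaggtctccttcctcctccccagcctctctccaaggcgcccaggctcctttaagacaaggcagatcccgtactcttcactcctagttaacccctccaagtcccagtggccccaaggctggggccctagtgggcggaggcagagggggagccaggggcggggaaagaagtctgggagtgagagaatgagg
Ankrd1 promoter, chr19:36119795-36120094, minus strand: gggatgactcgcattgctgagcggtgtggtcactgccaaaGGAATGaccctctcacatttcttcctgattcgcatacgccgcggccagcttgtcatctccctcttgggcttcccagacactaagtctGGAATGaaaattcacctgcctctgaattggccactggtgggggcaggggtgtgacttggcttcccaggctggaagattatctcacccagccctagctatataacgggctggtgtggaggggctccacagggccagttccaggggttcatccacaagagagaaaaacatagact
Ccn1 promoter, chr3:145649936-145650235, minus strand: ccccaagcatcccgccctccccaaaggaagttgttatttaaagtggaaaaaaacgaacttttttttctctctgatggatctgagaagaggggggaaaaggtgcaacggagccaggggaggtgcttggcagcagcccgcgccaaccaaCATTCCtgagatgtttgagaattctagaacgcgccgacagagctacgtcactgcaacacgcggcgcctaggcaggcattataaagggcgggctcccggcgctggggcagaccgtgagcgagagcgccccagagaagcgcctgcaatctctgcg
Amotl1 promoter, chr9:14614951-14615250, minus strand: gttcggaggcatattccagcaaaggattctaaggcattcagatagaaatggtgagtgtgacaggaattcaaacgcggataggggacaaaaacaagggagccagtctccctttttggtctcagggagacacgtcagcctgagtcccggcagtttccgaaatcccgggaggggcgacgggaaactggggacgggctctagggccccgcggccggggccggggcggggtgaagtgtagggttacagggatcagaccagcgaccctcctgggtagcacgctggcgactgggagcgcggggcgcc

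The match lies 233 bases before the start in Axl. Ankrd1 holds a pair of matches, 210 and 123 bases before the start, and the Ccn1 match lies 103 bases before it on the opposite strand. In the windows not printed, Yap1 has a match 141 bases and Amotl2 a match 65 bases before the start, and the first Lats2 window has one that begins at base 5. No GGAATG is present in the Amotl1 window or the second Lats2 window. In all, 6 of the 8 windows hold the motif, and 14.7% of 32851 promoters in the same table do. The AP-1 letters TGANTCA, searched in addition on both strands, are in 0 of the 8 windows and in 7.8% of all promoters, so no overlap of the motifs arises. The windows of the members hold 42.7% to 74.0% G and C, against a median of 52.7% over all promoters. A match describes these windows only; binding was not measured.

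Ratios are given on the log2 scale, starved over unstarved, ± the moderated standard error (SE) with n = 2. The adjusted p-values come from limma with Benjamini-Hochberg adjustment over 16079 genes. Levels are log2 normalised intensities of 1 probe, and they are compared between samples and not between genes. Arrays of a replicate are technical repeats. The array positions are those of build mm8, for which no annotation was used here, so the exon is not given. In lysates of whole dishes, fewer cells that express a gene and less RNA per cell cannot be told apart.

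Of the 10 members, 4 passed an adjusted p of 0.05, 3 lower (Axl, Ankrd1 and Thbs1) and 1 higher (Amotl1, on the brighter of its 2 probes, the other being lower) in starved cells; of all genes tested, 31.4% passed, 18.1% higher and 13.3% lower. The members' median log2 ratio was -0.17, against 0.01 over all genes. The sign was the same on all 4 arrays for 7 of the 10 members, and for 69.3% of all genes. Starved and unstarved levels did not overlap over the 4 arrays for 5 members, all lower in starved cells (Axl, Ankrd1, Thbs1, Ccn1 and Lats2), and for 51.8% of all genes. Of all genes, 23.5% had starved levels under all unstarved ones.

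**Figure D1:**
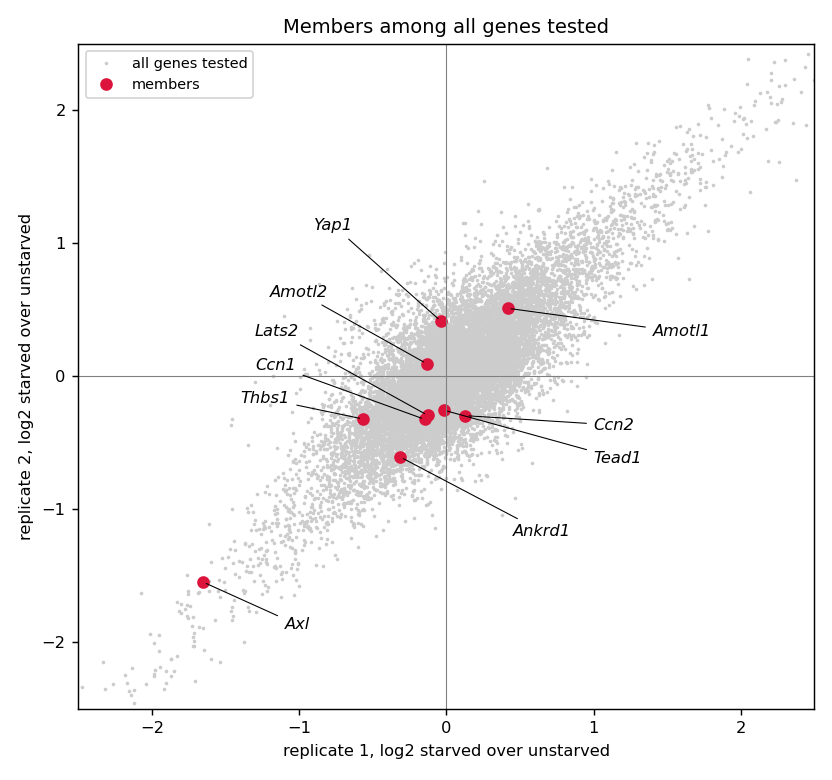
Log2 ratio of starved over unstarved cells in replicate 1 (x axis) and replicate 2 (y axis), each the mean of 2 technical arrays; grey points are the 16079 genes tested (36 lie outside the drawn range of ±2.5) and red points the 10 members. Axl stands at -1.65 and -1.55, and the other 9 members lie within the bulk of genes.

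Axl encodes a receptor tyrosine kinase for the vitamin K-dependent ligand Gas6. Its probe lies on chromosome 7 from 25466694 to 25466753. The Axl level was 11.33 and 11.40 in the starved samples of replicate 1 and 11.42 and 11.15 in those of replicate 2, against 12.97 and 13.07 in the unstarved samples of replicate 1 and 12.96 and 12.70 in those of replicate 2. Every starved sample lay more than a log2 unit under every unstarved one, and neither group overlapped the other. The ratio was -1.60 ± 0.12 (SE, n = 2), 3.03-fold lower in starved cells (limma adjusted p = 6.72e-08). Only 81 of the 16079 genes, Axl among them, were as low or lower (0.504%). Axl was also the one member that kept its call when loess was replaced by median centring (-1.68, limma adjusted p = 0.010). Few genes of any kind kept it: 249 of the 16079 passed with median centring, against 5046 with loess.

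Ankrd1 encodes a nuclear ankyrin repeat protein induced by stretch in muscle. Its probe lies on chromosome 19 from 36177463 to 36177522. The level was 16.93 and 16.98 (replicate 1) and 16.67 and 16.79 (replicate 2) in starved samples, against 17.30 and 17.24 (replicate 1) and 17.27 and 17.41 (replicate 2) in unstarved samples. All 4 starved values lay under all 4 unstarved ones. Ankrd1 fell by 0.46 ± 0.13 on the log2 scale, or 1.38-fold (limma adjusted p = 0.0117), with -0.31 in replicate 1 and -0.61 in replicate 2. With median centring, under which 249 of all 16079 genes passed, the ratio was -0.87 and did not pass (limma adjusted p = 0.686).

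Thbs1 encodes thrombospondin 1, a matrix glycoprotein that binds integrins and activates latent TGF-beta. It had 3 probes on chromosome 2. The brightest, A_52_P363951, gave levels of 14.56 and 14.56 (replicate 1) and 14.70 and 14.70 (replicate 2) in starved samples, against 15.13 and 15.12 (replicate 1) and 15.003 and 15.03 (replicate 2) in unstarved samples. The groups were separate, and Thbs1 fell by 0.44 ± 0.13 on the log2 scale (limma adjusted p = 0.0136), -0.57 in replicate 1 and -0.32 in replicate 2. The other 2 probes gave -0.63 (-0.62 and -0.63 in the replicates) and -0.66 (-0.66 and -0.65), with limma adjusted p = 0.00115 and 0.00076 over all 24606 probes (29.5% of which passed). These probes, whose sequences are shown because they gave the largest and most even fall of the gene, lie 1.6 kb apart, and the listed span of A_52_P337092 is 181 bases for 60 bases of probe.
Thbs1 probe A_52_P337086, chr2:117814035-117814094: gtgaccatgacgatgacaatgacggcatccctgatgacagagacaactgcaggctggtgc
Thbs1 probe A_52_P337092, chr2:117812417-117812597: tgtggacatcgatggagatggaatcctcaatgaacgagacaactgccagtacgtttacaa

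Ccn1 and Ccn2 encode secreted matricellular proteins and are the most used reporters of YAP activity. Their probes are on chromosome 3 from 145584609 to 145584668 (Ccn1) and chromosome 10 from 24287891 to 24287950 (Ccn2). Ccn1 had levels of 16.92 and 16.88 (replicate 1) and 16.60 and 16.87 (replicate 2) in starved samples, against 17.06 and 17.04 (replicate 1) and 16.98 and 17.14 (replicate 2) in unstarved samples. All starved values lay under all unstarved ones, but the ratio of -0.23 ± 0.12 did not pass (limma adjusted p = 0.171, 95% interval -0.50 to 0.03).

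Ccn2 had levels of 17.16 and 17.15 (replicate 1) and 16.87 and 16.87 (replicate 2) in starved samples, against 17.00 and 17.05 (replicate 1) and 17.22 and 17.11 (replicate 2) in unstarved samples. Starved samples were the higher ones in replicate 1 and the lower ones in replicate 2, so the groups overlapped. The replicate ratios were 0.13 and -0.30, and their mean of -0.08 ± 0.13 did not pass (limma adjusted p = 0.680, 95% interval -0.37 to 0.20).

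**Figure D2:**
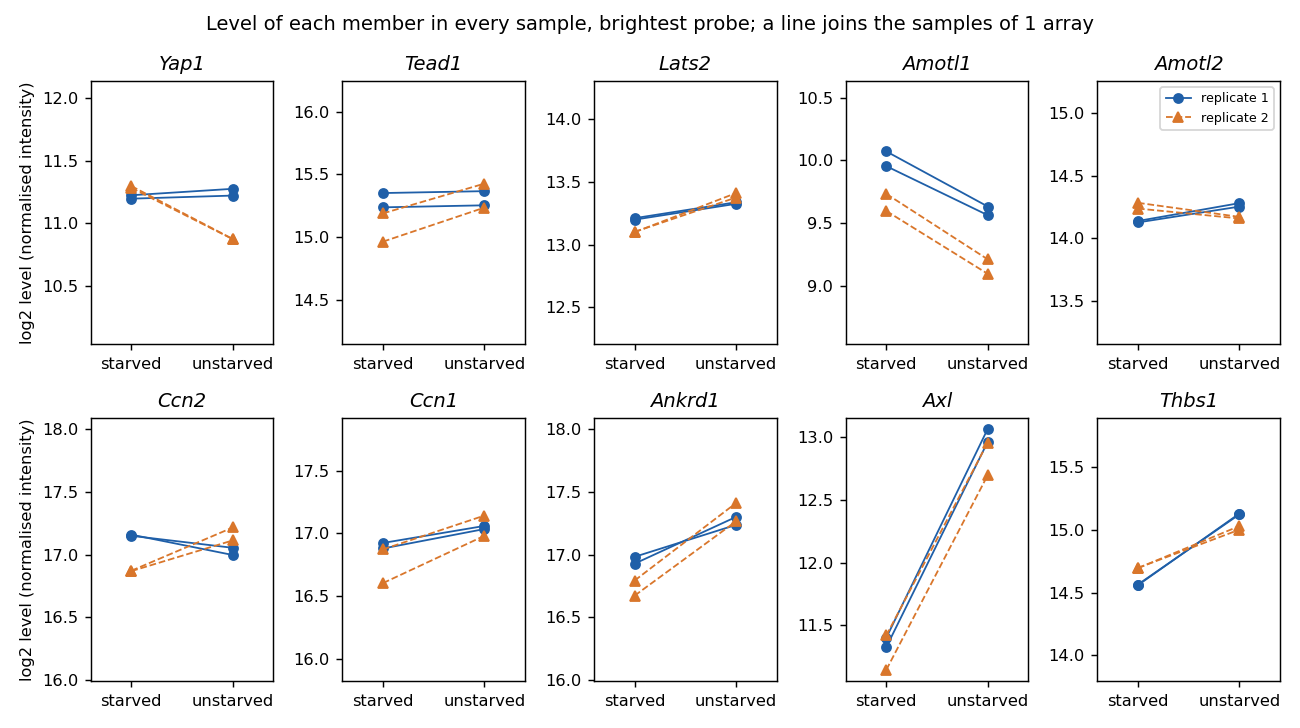
Log2 level (normalised intensity, y axis) of the 10 members in every sample, brightest probe, starved left and unstarved right; a line joins the samples of 1 array, circles are replicate 1 and triangles replicate 2, and all panels span the same range of log2 units. All starved values lie under all unstarved ones for Axl, Ankrd1, Thbs1, Ccn1 and Lats2, and the lines of Ccn2, Yap1 and Amotl2 run differently in the 2 replicates.

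Of the factors, Yap1 encodes the co-activator and Tead1 a DNA-binding partner. The Yap1 probe lies on chromosome 9 from 7933061 to 7933120. Yap1 had levels of 11.22 and 11.20 (replicate 1) and 11.28 and 11.30 (replicate 2) in starved samples, against 11.27 and 11.22 (replicate 1) and 10.87 and 10.87 (replicate 2) in unstarved samples. The starved samples of both replicates lay close together, and the unstarved samples of replicate 2 lay apart from all others. The ratio of 0.19 ± 0.14 did not pass (limma adjusted p = 0.319, 95% interval -0.10 to 0.48), with -0.04 in replicate 1 and 0.42 in replicate 2.

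Tead1 had 3 probes on chromosome 7, between 112690667 and 112697570; 2 of them carry a clone name on the array and were joined to Tead1 through its synonym. The brightest gave 15.24 and 15.35 (replicate 1) and 15.19 and 14.96 (replicate 2) in starved samples, against 15.25 and 15.37 (replicate 1) and 15.43 and 15.24 (replicate 2) in unstarved samples, and the groups overlapped. Its ratio was -0.14 ± 0.13 (limma adjusted p = 0.457, 95% interval -0.40 to 0.13). The other 2 probes gave -0.26 and -0.32, so all 3 were below 0, and they did not pass over all probes (limma adjusted p of 0.138 and 0.0902 for these 2). The probe at -0.32 was well above background on 3 of 4 arrays in starved samples and 4 of 4 in unstarved samples, and it passed at -0.43 with a normexp offset of 10 (limma adjusted p = 0.0144) and at -0.68 on Agilent's processed signals (limma adjusted p = 0.0123).

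Lats2 encodes a kinase that phosphorylates YAP, and its 4 probes on chromosome 14 were all lower in starved samples. The brightest gave 13.20 and 13.21 (replicate 1) and 13.10 and 13.10 (replicate 2) in starved samples, against 13.32 and 13.34 (replicate 1) and 13.41 and 13.38 (replicate 2) in unstarved samples. The groups did not overlap, but the ratio of -0.21 ± 0.12 did not pass (limma adjusted p = 0.222, 95% interval -0.47 to 0.05). Probe A_51_P331525, which shares 32 bases with it, gave -0.26 (limma adjusted p = 0.148 over all probes), and A_51_P133349, 1.2 kb away, fell by 0.39 (limma adjusted p = 0.0298).

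The fourth Lats2 probe, A_52_P425064, lies 32.4 kb from the brightest one and is annotated on the array to a separate Lats2 cDNA rather than to the transcript of the other 3. Its levels were 9.31 and 9.27 (replicate 1) and 9.29 and 9.27 (replicate 2) in starved samples, against 10.19 and 10.11 (replicate 1) and 10.34 and 10.35 (replicate 2) in unstarved samples. It fell by 0.96 ± 0.13 on the log2 scale, 1.94-fold (limma adjusted p = 2.2e-05 over all probes). The ratio of the brightest probe was above that of A_52_P425064 by 0.75 ± 0.03 (SD, n = 2) and by 0.70 to 0.80 on the 4 arrays. Averaging all 4 probes gave a Lats2 ratio of -0.46, which passed (limma adjusted p = 0.0110). The fourth probe and the start of the brightest one are shown because the 2 readings of the gene differ.
Lats2 probe A_52_P425064, chr14:56676512-56676571: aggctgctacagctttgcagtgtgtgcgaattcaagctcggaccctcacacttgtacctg
First 30 bases of Lats2 probe A_52_P315345, chr14:56644080-56644139: tcaaggatggaacacatcccattttcatta

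Amotl1 and Amotl2 encode angiomotin-like scaffold proteins of tight junctions that bind YAP. The brightest Amotl1 probe, A_51_P210708, gave 9.95 and 10.07 (replicate 1) and 9.73 and 9.60 (replicate 2) in starved samples, against 9.56 and 9.63 (replicate 1) and 9.21 and 9.09 (replicate 2) in unstarved samples. The starved sample was higher on each of the 4 arrays, while levels of the groups overlapped across replicates. Amotl1 rose by 0.46 ± 0.12 on this probe, or 1.38-fold (limma adjusted p = 0.00872), and without the pairing of samples on an array the adjusted p was 0.0502.

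The second Amotl1 probe, A_51_P454634, lies 5.7 kb away on chromosome 9 and ran the other way. Its levels were 8.50 and 8.47 (replicate 1) and 8.54 and 8.63 (replicate 2) in starved samples, against 8.97 and 8.93 (replicate 1) and 9.11 and 9.18 (replicate 2) in unstarved samples, with no overlap. It fell by 0.51 ± 0.13 (limma adjusted p = 0.00561 over all probes). The ratio of A_51_P210708 was above that of A_51_P454634 by 0.97 ± 0.14 (SD, n = 2), and by 0.86 to 1.09 on the 4 arrays. The mean of both probes was -0.02 (limma adjusted p = 0.895), so the direction of Amotl1 rests on which probe is read. Their sequences are shown for that reason: the listed span of A_51_P210708 covers 34 of its 60 bases, every forward reading frame of it holds a stop codon, and A_51_P454634 is open in 1 frame.
First 30 bases of Amotl1 probe A_51_P210708, chr9:14292363-14292396: cagttgatggcaactaattcatcttagaac
Amotl1 probe A_51_P454634, chr9:14298093-14298152: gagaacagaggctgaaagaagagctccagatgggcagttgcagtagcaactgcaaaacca

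Amotl2 had 1 probe, on chromosome 9 from 102590845 to 102590904. Its levels were 14.14 and 14.13 (replicate 1) and 14.24 and 14.28 (replicate 2) in starved samples, against 14.28 and 14.25 (replicate 1) and 14.16 and 14.17 (replicate 2) in unstarved samples. The groups overlapped, and the ratio of -0.02 ± 0.13 did not pass (limma adjusted p = 0.926, 95% interval -0.29 to 0.25).

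**Figure D3:**
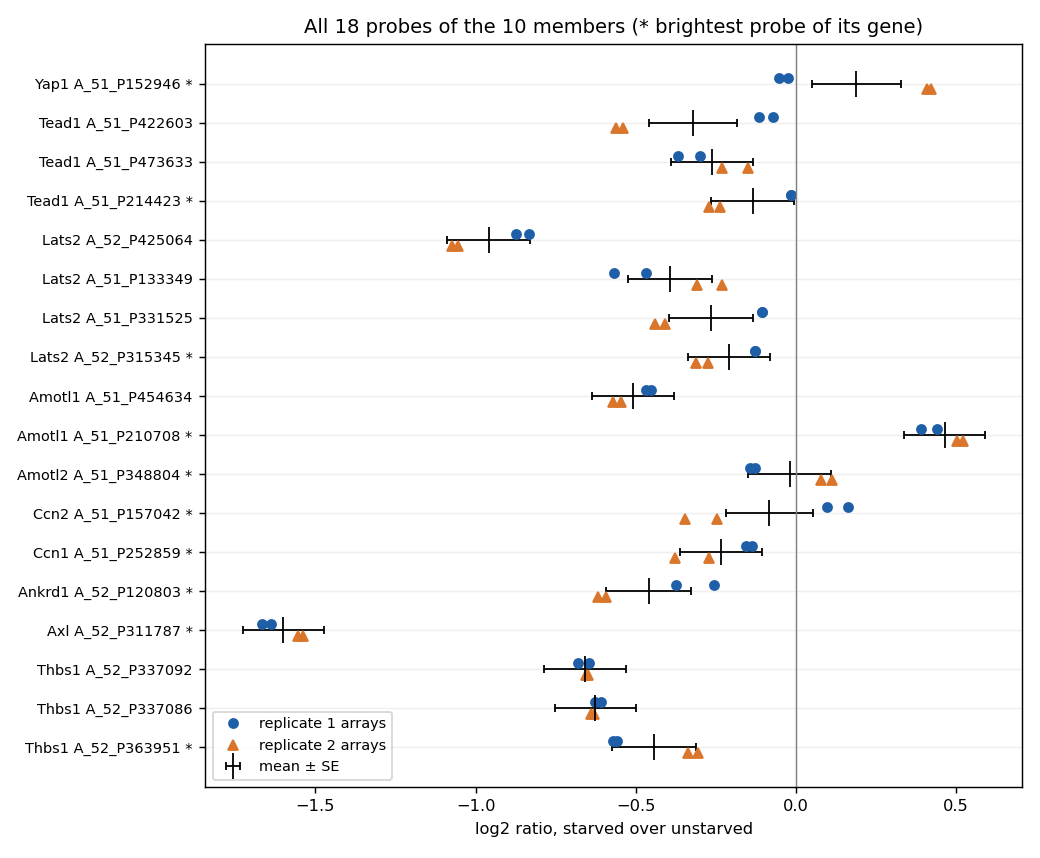
Log2 ratio of starved over unstarved cells (x axis) for each of the 18 member probes, grouped by gene; circles are the arrays of replicate 1, triangles those of replicate 2, and bars the mean ± SE of the probe-by-probe fit. The 2 Amotl1 probes lie at 0.46 and -0.51, and Lats2 probe A_52_P425064 at -0.96 lies apart from the other 3 Lats2 probes at -0.21 to -0.39.

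Loess and median centring differ for bright probes, and this touches Ccn1, Ccn2 and Ankrd1. In the 855 genes with a mean log2 signal of at least 16, which include these 3 members, the median ratio was -0.05 with loess and -0.43 with median centring; over all genes it was 0.01 and -0.08. With median centring Ccn1 read -0.64, Ccn2 -0.49 and Ankrd1 -0.87, and none of the 3 passed (limma adjusted p = 0.9998, 0.9998 and 0.686). Of all 16079 genes, 249 passed in that setting. Relative to the median of the 855 genes, Ankrd1 stood at -0.41 with loess and -0.44 with median centring, Ccn1 at -0.18 and -0.21, and Ccn2 at -0.03 and -0.06. Members under this signal limit also read lower with median centring, among them Thbs1 (-0.69), Tead1 (-0.41) and Amotl2 (-0.22). The cause of the shift was not tested.

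**Figure D4:**
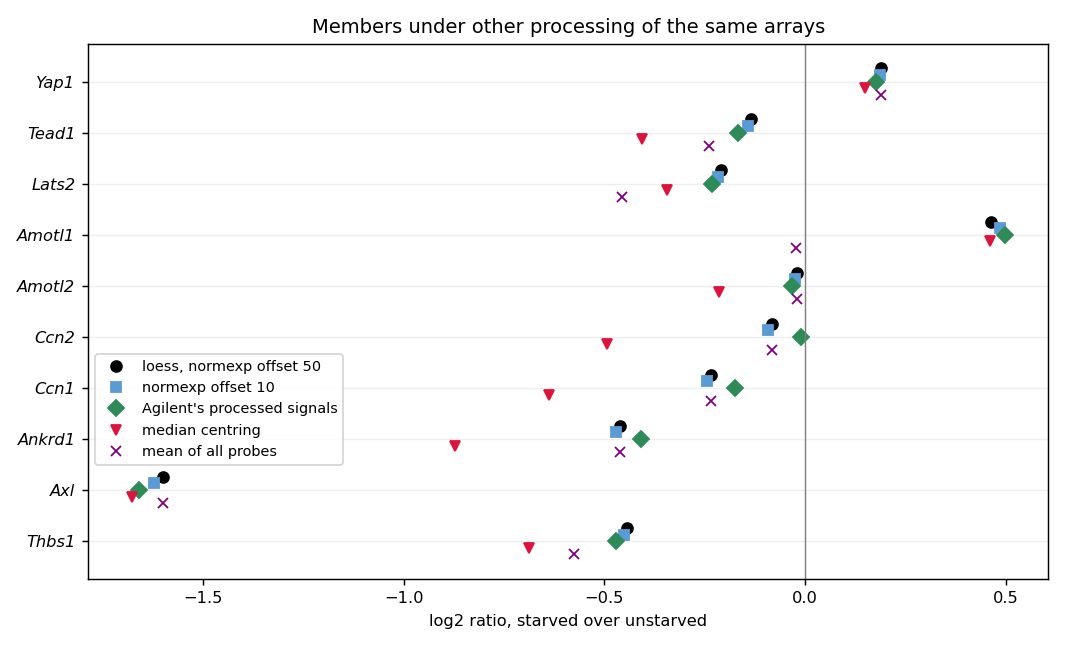
Log2 ratio of starved over unstarved cells (x axis) of the 10 members under 5 ways of processing the same arrays, marked by symbol. Median centring lies lowest for Ccn1, Ccn2, Ankrd1, Thbs1, Yap1, Tead1, Amotl2 and Axl, and the mean of all probes moves Amotl1 to -0.02 and Lats2 to -0.46.

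Of 29 other Hippo pathway genes, 26 were tested, 5 rose, 5 fell and 16 did not pass (38.5% called, against 31.4% of all genes; median -0.0025). Fat4, Vgll1 and Vgll2 were not well above background on all arrays of a group and were not tested. The angiomotin gene Amot rose by 1.26 ± 0.12 (limma adjusted p = 9.65e-07) and Wwc1, which encodes the scaffold KIBRA, by 0.81 ± 0.12. Of the LIM protein genes, Limd1 (0.63 on its brighter probe and 0.33 on the other) and Wtip (0.36) also rose, and Ajuba fell. Wtip did not pass with Agilent's processed signals (limma adjusted p = 0.0704) or the deposited values (limma adjusted p = 0.0681). Wwtr1, which encodes TAZ, rose by 0.54 ± 0.12 on the brighter of its 2 probes (limma adjusted p = 0.00309), with 0.48 and 0.60 in the 2 replicates. Its other probe gave 0.27, and the mean of both was 0.41 (limma adjusted p = 0.0181).

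Vgll3, which encodes a vestigial-like cofactor that binds TEAD, fell by 2.24 ± 0.13 (limma adjusted p = 2.12e-09), and its level averaged 8.26 ± 0.02 in starved samples and 10.50 ± 0.19 in unstarved samples (SD, n = 2 each). Among the TEAD genes, Tead4 fell by 0.87 ± 0.12 (limma adjusted p = 5.23e-05) and Tead2 by 0.44 ± 0.12 (limma adjusted p = 0.0124), while Tead3 read 0.03 (limma adjusted p = 0.894). The LIM protein gene Ajuba fell by 0.41 (-0.64 in replicate 1 and -0.18 in replicate 2) and Frmd6, which encodes a FERM protein upstream of the kinases, by 0.38. Lats1 (-0.08) and Nf2 (0.07), the genes of a LATS kinase and of merlin, did not pass. Of these, Vgll3 alone passed with median centring, under which 249 of all 16079 genes passed.

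Of the further genes of a published 22-gene YAP/TAZ signature, Ptpn14 was counted with the Hippo genes above and did not pass (0.12, limma adjusted p = 0.531). Of the 15 others, 12 were tested, 4 rose, 3 fell and 5 did not pass (58.3% called, against 31.4% of all genes, median 0.09). Igfbp3, Foxf2 and Nt5e were not tested. Rbms3, an RNA-binding protein gene, rose by 1.06 ± 0.12 (limma adjusted p = 6.69e-06), and the kinase gene Nuak2 (0.55, with 0.32 and 0.77 in the 2 replicates), the stress gene Gadd45a (0.51) and F3, which encodes tissue factor (0.41), also rose. Tgfb2, a TGF-beta ligand gene, fell by 1.32 ± 0.12 (limma adjusted p = 5.52e-07), Crim1, a membrane protein gene, by 0.77 and Ccdc80, a matrix protein gene, by 0.73. Genes named as targets of the same factors thus moved in both directions.

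**Figure D5:**
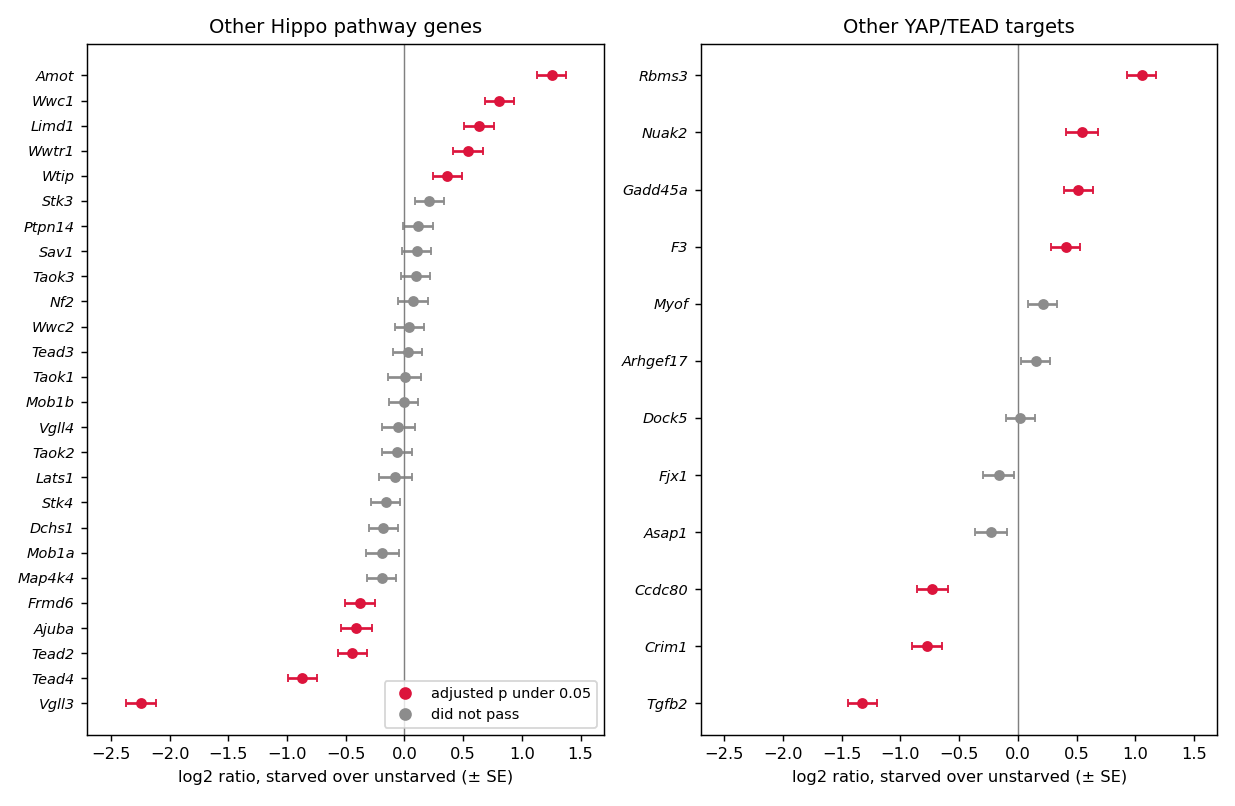
Log2 ratio of starved over unstarved cells ± SE (x axis, n = 2 replicates) of the 26 tested other Hippo pathway genes (left) and the 12 tested other YAP/TEAD targets (right); red marks an adjusted p under 0.05. Vgll3 at -2.24 and Tgfb2 at -1.32 are the lowest of their panels, Amot at 1.26 and Rbms3 at 1.06 the highest.

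The genes whose 4 array ratios lay nearest to those of Axl (Euclidean distance over the 4 arrays) were Id3 (-1.58, distance 0.11), Igfbp2 (-1.66, distance 0.13) and Sbsn (-1.61, distance 0.13). For Amotl1 on its brightest probe they were Vps11 (0.47), LOC77413 (0.46) and Klf10 (0.45), at distances of 0.02 to 0.04.

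Epithelial markers were all above background (11 of 11), including Cdh1, Epcam, Pax8 and the water channel gene Aqp2. Among them, Aqp2, Gata3 and Pax2 gave dim signals (mean levels in starved samples 8.92, 8.11 and 7.66), as the leukocyte marker Cd68 did (8.56). The log2 of their summed level was 18.64 to 18.95 in starved samples and 19.08 to 19.18 in unstarved samples, and the keratin genes Krt8 and Krt18 made up 63.4% to 73.2% of the sum in starved samples and 71.3% to 75.8% in unstarved samples. Cdh1 (0.67), Epcam (0.61) and Cldn4 (0.86, with 0.26 and 1.47 in the 2 replicates) rose and Krt8 (-0.64) and Krt19 (-0.90) fell. Of 9 fibroblast markers 3 were tested, while the probes for Thy1, Pdgfrb, Pdgfra, Lum, Dcn and Col3a1 stayed near background. Col1a1 fell by 1.01, Postn was not well above background in starved samples and was at least 1.91-fold lower there (limma adjusted p = 9.48e-06), and Col1a2 read -0.11 without passing. The log2 of the summed level of the 9, which includes the 6 near background, was 10.22 to 10.30 in starved samples and 10.61 to 10.72 in unstarved samples. Of 5 endothelial markers 0 were tested, and of 4 leukocyte markers 3 were. Ptprc (-0.50) fell, but in starved samples it was well above background on only 2 of 4 arrays. It entered the test through the unstarved samples. The leukocyte sum on the same scale was 9.67 to 9.89 in starved samples and 9.90 to 10.14 in unstarved samples. Cd68 and Cd3e, neither of which passed, made up 69.6% to 75.0% of it in starved samples and 67.5% to 74.4% in unstarved samples. The sum of the 5 endothelial markers was 8.96 to 9.14 in starved samples and 8.98 to 9.07 in unstarved samples. The epithelial, fibroblast and, by a narrow margin, leukocyte sums were lower in starved samples, as were Axl, Ankrd1 and Thbs1. The genes within the epithelial sum moved in both directions, and the part of the markers in the result was not tested.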

How the data were processed

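Per the submitters' processing notes, the authors extracted spots with Agilent Feature Extraction 9.5.3.1. The deposited mean and background intensity of each spot is uncorrected, and the processed intensity is background-subtracted and dye-normalized, per the file headers; the value table's deposited intensity values for 41174 probes equal the scanner's processed signals times 1 factor per array (0.753 to 0.807; column medians 74.7 to 77.1; lowest value 15), with log ratios in the same direction and the reason for the factor unknown. Both samples of an array hold the same file, and each was read in its labelled dye. Background was corrected by normexp (offset 50), ratios by loess within arrays (limma 3.58.1, R 4.3.3), with 1639 control spots per array and 583 flagged spots left out and 0 saturated. Probe spots were averaged and the brightest probe stood for a gene. Names came from RefSeq (GRCm38.p6) by accession for 24375 probes, symbol for 6301 and synonym for 2422; 8076 kept the array's name. Levels follow loess and Aquantile. Each replicate has 1 dye orientation, so levels, bounds and ratios within a replicate are open to dye bias. Differences between the replicates cannot be told apart from dye effects. The same holds for the SE and the between-replicate correlations, which rest on these differences.

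By the labels, arrays 1 and 3 are replicate 1 (starved in Cy5) and arrays 2 and 4 replicate 2 (starved in Cy3); the series text, which calls the replicates biological, speaks of a dye swap within each pair. Technical arrays were averaged and 2 ratios fitted with lmFit and eBayes, two-sided (1 residual and 14.9 prior degrees of freedom); the number of arrays limits precision. Arrays correlated across genes at 0.991 within a replicate and 0.824 to 0.830 between replicates, and 59.6% to 62.8% of probes were well above background. The pairing comes from the shared array; same-numbered samples' deviations correlated at -0.297 but carry opposite dyes, so this cannot test it. All arrays share 1 slide and 1 scan, so batches could not be tested.

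Members and lists were chosen with earlier results of these data known. Named genes are all members, up to 5 rises and 5 falls among the called genes of each of the 2 further lists with Wwtr1, Tead2, Tead3, Tead4, Lats1 and Nf2, and the 3 genes nearest to the members with the largest fall and rise. Marker genes, AP-1 and the Ccn1 promoter came in addition. The fit was tested on simulated data.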

Additional observations from a re-analysis of the deposited data

How the results depend on the processing

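With 2 replicates, leaving one out leaves no residual degrees of freedom, so that setting gives no count and no test. Among genes that did not pass, 1 replicate alone had the opposite sign to the mean for Yap1 (-0.04 in replicate 1), Ccn2 (0.13 in replicate 1), Amotl2 (0.10 in replicate 2), Lats1 (0.19 in replicate 1), Tead3 (-0.09 in replicate 1) and Nf2 (-0.01 in replicate 1). Leaving out each technical array in turn gave 4964 to 5508 called genes, 4 called members, 10 Hippo genes and 7 further targets. A normexp offset of 10 gave 5301 genes, Agilent's processed signals 4964, the deposited values 5012, no filter 5253, a filter in both groups 4705 and the mean of all probes 4911, and members called stayed at 4 (0 higher and 4 lower with the mean of all probes). Wtip lost its call with Agilent's processed signals and the deposited values, leaving 9 Hippo genes in each. The mean of all probes gave 11 Hippo genes (5 higher, 6 lower) and 9 further targets (6 higher, 3 lower). Without the replicate block, which treats the paired samples of an array as separate groups, 5862 genes, 3 members (0 higher, 3 lower), 10 Hippo genes and 7 further targets passed; Amotl1 lost its call (limma adjusted p = 0.0502).

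With median centring, 249 genes, 1 member (Axl), 1 Hippo gene (Vgll3) and 0 further targets passed in limma, with 1092, 2, 3 and 3 at an unadjusted p under 0.05, and the all-gene median was -0.08; 19 of the 30 named genes lost their call in the same direction. Pairing arrays 1 and 2 against 3 and 4 gave 14297 genes, 9 members, 23 Hippo genes and 11 further targets, and arrays 1 and 4 against 2 and 3 gave 14104, 9, 22 and 11. By the labels, the replicates in both of these differ by technical repeats of each dye orientation, so the spread is that between technical arrays. If the dyes were swapped within each pair, as the series text has it, such a pairing could be that of the replicates. The number of genes and members called thus depends on which reading holds, and this could not be settled. Signs turned for Amotl1 with the mean of all probes (-0.023), Nf2 likewise (-0.18) and Tead3 with Agilent's processed signals (-0.01) and the value table (-0.01); the cause was not tested, other than that the second Amotl1 and Nf2 probes read below 0. Dim probes limit Tead1's A_51_P422603, Postn and Ptprc, whose starved signals were near background.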
